A study of Mus musculus with 18 samples.

Results

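The response of APRIL KO macrophages to lipopolysaccharide (LPS) was read by setting the APRIL KO LPS libraries against the APRIL KO unstimulated library. It rests on 6 of the 18 deposited columns, which make 3 of 9 libraries, and on 9934 of 11164 listed genes. Bone marrow-derived macrophages are phagocytes grown in culture from marrow precursors, and those used here came from mice of strain C57BL/6J. The APRIL KO LPS group (libraries 20 and 21, 4 columns) received 10 ng/ml LPS for 4 h, and the APRIL KO unstimulated group (library 19, 2 columns) received none. BAFF KO and WT macrophages, handled alike with 2 LPS libraries and 1 unstimulated library each, gave the responses it was compared with. All labels carry day 16 of gestation, and the study concerns BAFF and APRIL in preterm birth driven by inflammation. Neither the make of the knockout alleles nor the source of each library, an animal of its own or a shared culture, is given, so the p-values measure the spread between these particular libraries and that spread may be technical. The unstimulated group, with its lone library, was taken to vary like the others.

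LPS, a component of the outer wall of Gram-negative bacteria, is sensed by Toll-like receptor 4 (TLR4) with CD14 and MD-2. The adaptor MyD88 leads from the receptor to NF-kB and to cytokine genes, and the adaptor TRIF leads to IRF3 and to interferon beta, which acts back on the cell through JAK kinases and STAT factors. APRIL, the product of Tnfsf13, is a ligand in the tumour necrosis factor family that binds TACI and BCMA on B cells and plasma cells, and macrophages are known to be among the cells that make it.

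Values are RPKM, reads scaled to the length of a gene and to the total of its library, and libraries 20, 21 and 19 held 5695536, 5684067 and 5697551 reads. The deleted gene, Tnfsf13, had 0 reads in the 6 APRIL KO columns, of 17077154 reads in all, which allows up to 0.176 RPM, reads scaled to the total alone (3 reads over the genotype, counting error only). WT columns held 40.4 RPM, at least 230-fold more. Macrophage markers were abundant: Adgre1, which encodes F4/80, was at 516 and 519.7 RPKM in the LPS libraries, against 567 RPKM unstimulated, and Lyz2, the lysozyme gene, at 3141 and 2816 RPKM in the LPS libraries, against 5054 RPKM unstimulated. Library 21 stood apart from library 20 in matrix genes of stromal cells. Among the listed genes were 9 fibroblast or stromal markers, 7 of them tested. The summed level of the 9 was 19.3 and 469 RPKM in the LPS libraries 20 and 21, against 10.2 RPKM unstimulated. Col1a1 was at 5.65 and 253 with LPS, against an unstimulated 3.27 RPKM, and Ibsp, a bone matrix gene, at 0.184 and 41.4 with LPS, against an unstimulated 0.184 RPKM, the lowest of these being 0 reads. None of the 7 tested stromal markers was called in the LPS comparison, where the 2 LPS libraries differed this widely. Their changes ran from 0.50 to 3.35 on the log2(RPKM + 1) scale (median 1.93). Of other matrix genes higher in library 21, Tnc and Lox were called as higher with LPS, and Sparc and Fn1 were not. Tnc was at 7.2 and 20.1 RPKM in the LPS libraries, against 0.778 RPKM unstimulated.

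**Figure D1:**
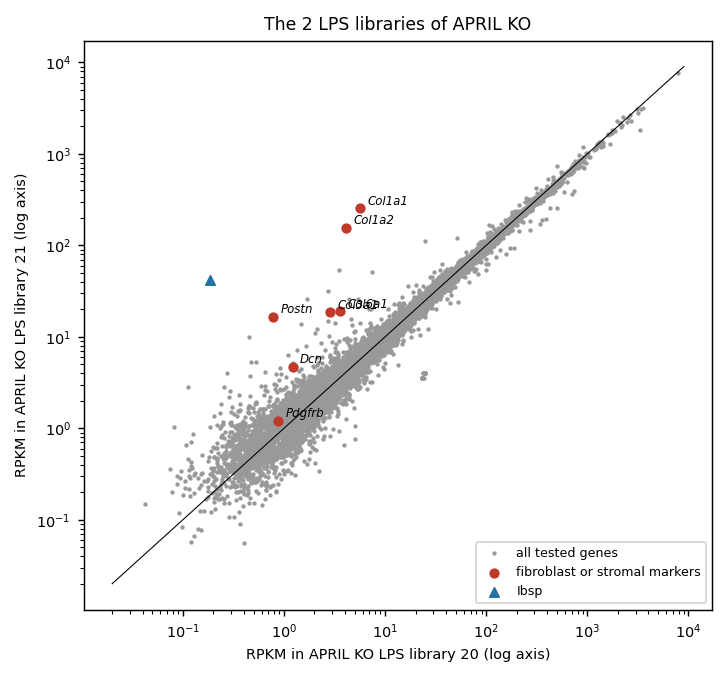
RPKM of each tested gene in APRIL KO LPS library 21 (vertical, log axis) against APRIL KO LPS library 20 (horizontal, log axis), with the line of equal values. Stromal markers lie above the line, with Col1a1 at 253 RPKM in library 21 and 5.65 RPKM in library 20, while most genes lie close to it.

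Across all tested genes the LPS libraries lay close together, with a median distance of 0.138 on the log2(RPKM + 1) scale and a correlation across genes of 0.988, a description without a p since genes are not independent replicates. A gap of at least 0.5 with at least 50 reads separated them at 310 genes, 182 higher in library 21 and 128 higher in library 20. Of these 310, 35 were among the rises described next, as were 1426 of all 9934 tested genes (14.4%). Of the 7 stromal markers, 6 were among the 182. Erythroid markers summed to 746 and 478 RPKM in the LPS libraries 20 and 21, against 555 RPKM unstimulated, and megakaryocyte markers to 503 and 446 RPKM in the LPS libraries 20 and 21, against 420.2 RPKM unstimulated. A further 23 of the 310 were Y-linked genes. Most of them had nearly the same values as each other, so that their reads may be shared between copies, and were higher in library 20. Gm21760 was at 24.2 and 3.52 RPKM in the LPS libraries 20 and 21, against 10.8 RPKM unstimulated.

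LPS raised the message of interleukin 1, interleukin 6, inducible nitric oxide synthase and chemokines most. Il1a, which encodes interleukin 1 alpha (mm10 chromosome 2, 129299610 to 129309972, minus strand), was at 966 and 798 RPKM in the LPS libraries, against 2.42 RPKM unstimulated, a change of 8.01 ± 0.15 (SE) on the log2(RPKM + 1) scale (limma, Benjamini-Hochberg adjusted p = 3.1e-08). Nos2, the inducible nitric oxide synthase (chromosome 11, 78920787 to 78960254, plus strand), was at 409 and 533 RPKM in the LPS libraries, against 0.861 RPKM unstimulated (7.97 ± 0.15, adjusted p = 3.7e-08). Il1b, the interleukin 1 beta gene next to Il1a (chromosome 2, 129364570 to 129371139, minus strand), was at 2269 and 2549 RPKM in the LPS libraries, against 8.84 RPKM unstimulated (7.93 ± 0.11, adjusted p = 2.5e-08). For these genes the LPS columns all lay far above both unstimulated columns. Il6, the interleukin 6 gene (chromosome 5, 30013114 to 30019981, plus strand), was at 469.9 and 445 RPKM in the LPS libraries, against 0.896 RPKM unstimulated (7.92). Ptgs2, the inducible cyclooxygenase of prostaglandin synthesis, was at 258 and 236 RPKM in the LPS libraries, against 1.09 RPKM unstimulated (6.89). Il27, a subunit of interleukin 27, was at 256 and 239.9 RPKM in the LPS libraries, against 2.24 RPKM unstimulated (6.27). All 3 were barely read without LPS and abundant in both LPS libraries. The log2(RPKM + 1) scale understates the change of such low genes.

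Ccl4 and Cxcl10 had the highest level with LPS of all genes that rose. Ccl4, which encodes a CC chemokine of macrophages, was at 3419 and 3125 RPKM in the LPS libraries, against 24.7 RPKM unstimulated (6.99), and Ccl3, its neighbour, at 2688 and 2269 RPKM in the LPS libraries, against 29 RPKM unstimulated (6.36). Cxcl10, a chemokine induced by interferon that attracts T cells, was at 3065 and 3128 RPKM in the LPS libraries, against 25.1 RPKM unstimulated (6.89). Ccl5 was at 1896 and 1764 RPKM in the LPS libraries, against 18.5 RPKM unstimulated (6.56), and Ccl7, which draws monocytes, at 209 and 273 RPKM in the LPS libraries, against 1.49 RPKM unstimulated (6.59). Ccl4, Ccl3, Cxcl10 and Ccl5 were already well read without LPS, whereas Ccl7 was barely read. The acute-phase gene Saa3 was at 548 and 638 RPKM in the LPS libraries, against 5.14 RPKM unstimulated (6.59), and Cd69, an early activation marker of leukocytes, at 104 and 114 RPKM in the LPS libraries, against 0.594 RPKM unstimulated (6.11). Gbp2b (6.71) and Trim30c (5.93) complete the 15 largest rises, and both belong to families of close relatives among which the counting could split reads. Adjusted p of the 15 ran from 2.5e-08 to 1.8e-07, and all 15 stayed called whichever of the 6 LPS libraries of the series was left out.

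**Figure D2:**
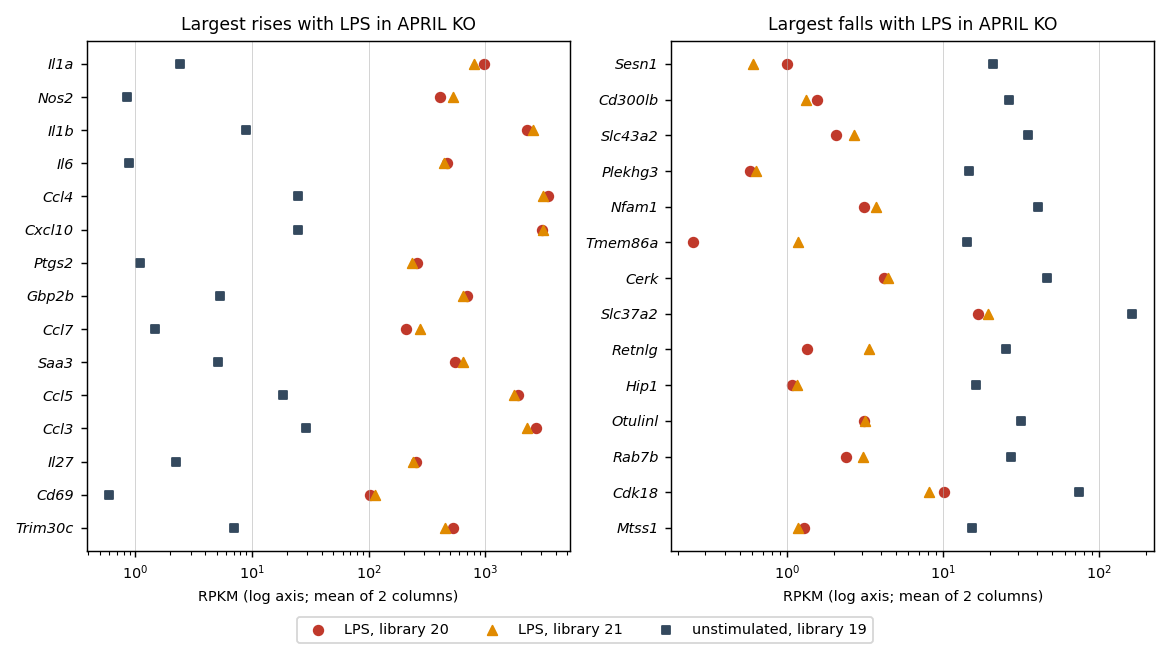
RPKM (log axis) of the 15 genes that rose most and 14 of the 15 that fell most with LPS in APRIL KO macrophages; circles and triangles are LPS libraries 20 and 21, squares the unstimulated library 19, each the mean of 2 columns. Il1a stands at 966 and 798 with LPS, against an unstimulated 2.42 RPKM, and Sesn1 at 0.998 and 0.606 with LPS, against an unstimulated 20.9 RPKM.

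The promoters of these rises were looked at for the sites that NF-kB and interferon factors are known to bind. RefSeq promoters (GRCm38.p6, 250 bases before to 50 after the start) were found for 9 of the 15 genes. The NF-kB consensus or the core of the interferon-stimulated response element (ISRE), on either strand, was present in 4 of them, which are shown with these matches in capitals, 5′ to 3′ on the strand of the gene. Il6 lies at chr5:30012864-30013163 on the plus strand, Cxcl10 at chr5:92348840-92349139 on the minus strand, Gbp2b at chr3:142594597-142594896 on the plus strand and Saa3 at chr7:46715627-46715926 on the minus strand.
Il6: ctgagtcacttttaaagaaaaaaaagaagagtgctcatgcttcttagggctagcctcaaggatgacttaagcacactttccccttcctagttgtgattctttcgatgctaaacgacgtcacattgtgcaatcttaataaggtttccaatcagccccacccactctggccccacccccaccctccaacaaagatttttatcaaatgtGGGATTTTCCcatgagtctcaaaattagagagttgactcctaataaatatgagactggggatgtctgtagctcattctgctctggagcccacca
Cxcl10: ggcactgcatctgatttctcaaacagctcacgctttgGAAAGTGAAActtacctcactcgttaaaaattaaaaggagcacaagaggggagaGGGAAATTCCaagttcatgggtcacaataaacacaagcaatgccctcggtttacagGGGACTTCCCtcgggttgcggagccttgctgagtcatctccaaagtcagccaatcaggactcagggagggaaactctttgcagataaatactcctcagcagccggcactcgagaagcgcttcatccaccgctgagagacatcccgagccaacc
Gbp2b: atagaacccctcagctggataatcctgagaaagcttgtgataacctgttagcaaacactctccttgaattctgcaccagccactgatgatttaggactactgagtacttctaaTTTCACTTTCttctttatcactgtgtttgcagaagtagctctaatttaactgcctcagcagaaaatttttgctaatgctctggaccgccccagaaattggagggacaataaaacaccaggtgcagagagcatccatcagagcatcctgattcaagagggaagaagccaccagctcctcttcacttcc
Saa3: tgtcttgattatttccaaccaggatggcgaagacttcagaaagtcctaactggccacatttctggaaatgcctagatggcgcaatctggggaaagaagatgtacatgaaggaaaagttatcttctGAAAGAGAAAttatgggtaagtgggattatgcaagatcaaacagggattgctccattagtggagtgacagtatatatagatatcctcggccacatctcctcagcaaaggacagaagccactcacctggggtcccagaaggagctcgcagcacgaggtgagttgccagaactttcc
The capitals mark an NF-kB match whose first base lies at -44 from the start in Il6. In Cxcl10 they mark a response element at -213 and NF-kB matches at -159 and -103, and in Gbp2b and Saa3 a response element at -137 and -125. Searched on both strands, 4.51% of 32851 mouse promoters of this length held the NF-kB consensus and 3.44% the response element core. Of the tested genes 77.7% had a promoter in the table, and 5.13% of these 7717 held the NF-kB consensus and 3.51% the response element core. With this incomplete cover, shares by gene set are not given. A match is a stretch of letters, not a measured site.

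In all, 1426 genes rose (14.4% of 9934 tested) and 4744 fell (47.8%) at an adjusted p below 0.05 in limma. Of these 827 rose and 1885 fell by at least 1 on the log2(RPKM + 1) scale, which is 2-fold in RPKM + 1. After median ratio scaling, described below, the counts at this cut were 1302 rises and 625 falls. The 4 LPS columns did not overlap the 2 unstimulated columns at 1413 of the rises and 4676 of the falls. Such separation goes with the call and is no separate support, and its share over all tested genes is not given here. RPKM divides by the total of reads, and the rising genes took 41.2% and 40.1% of all reads in the LPS libraries, against 13.6% unstimulated. The median change of all genes was -0.46. Median ratio scaling, which centres the typical gene, put it at -0.01, with 2345 rises (23.6%) and 1814 falls (18.3%), and quantile normalization put it at -0.17. All but 1 of the 1426 rises were called after median ratio scaling too, but only 1814 of the 4744 falls were, and 1 fall (Eif3h, chosen after its values were seen) turned into a rise. Falls named below were also called after median ratio scaling unless stated otherwise, and each list is described by its counts beside these shares of all genes.

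Genes rose from every level. Of 607 tested genes under 1 RPKM unstimulated 190 rose, which is 31.3%, but such a gene was tested only where some group reached 1 RPKM, so this share is not comparable with the others. The other shares were 11.8% of 4671 genes at 1 to 10 RPKM, 14.9% of 4061 at 10 to 100 RPKM and 13.1% of 595 at 100 RPKM or more. From under 1 RPKM 27 genes reached at least 10 RPKM and 3 at least 100 RPKM. At the other end, 30 genes fell to under 2 RPKM with LPS, against at least 10 RPKM unstimulated. With LPS the most abundant messages were Fth1, the ferritin heavy chain, and Ftl1, the ferritin light chain, followed by Ccl4 and Cxcl10. Ftl1 was at 3519 and 3200.3 RPKM in the LPS libraries, against 7582 RPKM unstimulated (-1.18, and -0.63 after median ratio scaling).

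The largest falls included genes of nutrient and lipid handling and of surface receptors. Sesn1, a stress-induced inhibitor of mTORC1 (chromosome 10, 41809935 to 41908424, plus strand), was at 0.998 and 0.606 RPKM in the LPS libraries, against 20.9 RPKM unstimulated (-3.61 ± 0.23, limma adjusted p = 1.4e-05). Cd300lb, a receptor of the CD300 family on myeloid cells (chromosome 11, 114922781 to 114934386, minus strand), was at 1.56 and 1.33 RPKM in the LPS libraries, against 26.5 RPKM unstimulated (-3.49 ± 0.22, adjusted p = 1.2e-05). Slc43a2, a transporter of large neutral amino acids, was at 2.05 and 2.69 RPKM in the LPS libraries, against 35 RPKM unstimulated (-3.42). In each of these the LPS libraries kept little of the unstimulated level. Slc37a2, a sugar phosphate transporter of macrophages, was at 16.8 and 19.5 RPKM in the LPS libraries, against 163 RPKM unstimulated (-3.11). Cerk, the ceramide kinase, was at 4.16 and 4.41 RPKM in the LPS libraries, against 46.1 RPKM unstimulated (-3.15), and Nfam1, a receptor that signals through an ITAM motif, at 3.11 and 3.73 RPKM in the LPS libraries, against 40.5 RPKM unstimulated (-3.24). A further 8 of the 15 were Plekhg3 (-3.29), Tmem86a (-3.20), Retnlg (-3.06), Hip1 (-3.03), Otulinl (-2.97), Rab7b, a small GTPase of late endosomes (-2.93), Cdk18 (-2.89) and Mtss1 (-2.87). By choice all 15 also fell after median ratio scaling, and all 15 stayed called whichever single LPS library was left out.

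Genes of LPS sensing went both ways. Of the Toll-like receptor and adaptor genes 13 rose and 5 fell of 26 tested (median 0.42), and 14 rose and 3 fell after median ratio scaling. Tlr3, the receptor for double-stranded RNA, was at 11.2 and 13 RPKM in the LPS libraries, against 1.28 RPKM unstimulated (2.52), and Cd14, the LPS co-receptor, at 184 and 203 RPKM in the LPS libraries, against 45.2 RPKM unstimulated (2.07). Myd88, the adaptor, rose by 1.98 and the kinase gene Map3k8 by 1.70. Tlr13, a sensor of bacterial ribosomal RNA, was at 0.811 and 0.88 RPKM in the LPS libraries, against 5.88 RPKM unstimulated (-1.90), and the kinase genes Irak1 (-1.17) and Irak4 (-1.16) also fell under both scalings. Tlr4 itself was at 0.785 and 0.816 RPKM in the LPS libraries, against 2.1 RPKM unstimulated (-0.78, adjusted p = 0.0095), a fall that was not called after median ratio scaling.

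NF-kB genes and inhibitors of the pathway rose in most cases. Of the NF-kB subunits and IkB proteins 13 rose and 1 fell of 15 tested (median 2.00), and 13 rose and 0 fell after median ratio scaling. Nfkbiz, an IkB protein that acts in the nucleus, was at 104 and 100 RPKM in the LPS libraries, against 7.75 RPKM unstimulated (3.56), and Nfkbia, the IkB that retains NF-kB in the cytoplasm, at 941 and 922 RPKM in the LPS libraries, against 119 RPKM unstimulated (2.96). Nfkb2 and Nfkbie both changed by 2.68. Among feedback inhibitors 17 rose and 0 fell of 22 tested (median 1.72), and 19 rose and 0 fell after median ratio scaling. Socs3, an inhibitor of cytokine receptor signalling, was at 35.7 and 28.8 RPKM in the LPS libraries, against 0.291 RPKM unstimulated (4.68), Usp18, which restrains the interferon receptor, at 806 and 755 RPKM in the LPS libraries, against 45.3 RPKM unstimulated (4.08), and Tnfaip3, which encodes A20, at 183 and 166 RPKM in the LPS libraries, against 10.3 RPKM unstimulated (3.95). The phosphatase gene Dusp2 changed by 3.42.

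Cytokine genes rose with few exceptions. Of the proinflammatory cytokines 14 rose and 0 fell of 17 tested (median 3.06), and 16 rose and 0 fell after median ratio scaling. Beside Il1a, Il1b, Il6 and Il27, described above, Il12b, the p40 subunit of interleukins 12 and 23, was at 72 and 61.4 RPKM in the LPS libraries, against 1.35 RPKM unstimulated (4.84), and Tnf, chosen after its values were seen, at 693 and 601 RPKM in the LPS libraries, against 20.3 RPKM unstimulated (4.92). Among anti-inflammatory cytokines, their receptors and antagonists 7 rose and 2 fell of 10 tested (median 1.56), and 7 rose and 0 fell after median ratio scaling. Il10, which dampens macrophage activation, was at 141 and 136 RPKM in the LPS libraries, against 2.31 RPKM unstimulated (5.40), Il1rn, the interleukin 1 receptor antagonist, at 477 and 464 RPKM in the LPS libraries, against 33.3 RPKM unstimulated (3.78), and Il19 at 6.58 and 6.82 RPKM in the LPS libraries, against 0.353 RPKM unstimulated (2.51). Il19 had 0 reads unstimulated and was at least 12.5-fold higher with LPS against a limit of 3 reads. So the LPS libraries held interleukin 1 message together with that of its antagonist. The falls of Tgfb1 (-0.32) and Il10rb (-0.28) took the opposite sign after median ratio scaling (0.22 and 0.25), and the list had 0 falls without library 20 and 1 without library 21.

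Of the CC chemokines 9 rose and 0 fell of 11 tested (median 4.41), and 10 rose and 0 fell after median ratio scaling. Of the CXC chemokines 7 rose and 1 fell of 9 tested (median 4.96), and 7 rose and 0 fell after median ratio scaling. The neutrophil attractants Cxcl2, Cxcl3 and Cxcl1 changed by 5.44, 5.27 and 5.09, and Cxcl2 was at 919 and 693 RPKM in the LPS libraries, against 17.4 RPKM unstimulated. Cxcl9, a T cell attractant induced by interferon gamma, was at 33.1 and 35.3 RPKM in the LPS libraries, against 0.131 RPKM unstimulated (4.96). The unstimulated value stands for 0 reads; against a limit of 3 reads Cxcl9 was at least 187-fold higher with LPS. The list of chemokine receptor genes, which also holds receptors for other attractants, had 2 rises and 3 falls among 8 tested (median -0.23). After median ratio scaling it had 3 and 3. The 2 rises were Ccrl2 and Fpr2, which encodes a formyl peptide receptor. Ccrl2, a receptor that binds chemerin without signalling, was at 59.6 and 55.6 RPKM in the LPS libraries, against 1.61 RPKM unstimulated (4.49), and Ccr2, the receptor for Ccl2 and Ccl7, at 0.558 and 0.741 RPKM in the LPS libraries, against 5.36 RPKM unstimulated (-1.95). Cx3cr1 (-1.26) and C5ar1 (-1.14), the latter a receptor gene for complement C5a, fell as well.

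Interferon-stimulated antiviral genes rose nearly without exception. Of these 39 rose and 0 fell of 40 tested (median 2.81), and 39 rose and 0 fell after median ratio scaling. Cmpk2, a mitochondrial nucleotide kinase, was at 826 and 861 RPKM in the LPS libraries, against 14.9 RPKM unstimulated (5.73), Rsad2, which encodes viperin, at 1675 and 1634 RPKM in the LPS libraries, against 36.1 RPKM unstimulated (5.48), and Oasl1, which limits Irf7 translation in mice, at 344 and 301 RPKM in the LPS libraries, against 6.51 RPKM unstimulated (5.43). Mx2 changed by 4.46. The exception was Isg15, chosen after its values were seen, at 0.594 and 1.11 with LPS, against an unstimulated 1.06 RPKM (-0.17, adjusted p = 0.77). It has few exons, and the table lists few such genes. In it were 0.225% of protein-coding genes with 1 exon and 10.6% of those with 2 exons. The share was 63.3% for those with 6 or more. Whether exon number bears on the values of Isg15 was not tested. All 14 tested guanylate-binding proteins and immunity-related GTPases rose under both scalings (median 3.91), among them Gbp2, at 1301 and 1331 RPKM in the LPS libraries, against 24 RPKM unstimulated (5.72), and Gbp3 (5.38). These families of GTPases attack vacuoles that hold pathogens, and their members share sequence, so single values are uncertain.

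Factors that carry the interferon signal rose in part. In the list of interferon regulatory factors 6 rose and 2 fell of 9 tested (median 0.97), and 6 rose and 1 fell after median ratio scaling. The 2 falls were Irf3 and Irf2bp2, which encodes a protein that binds IRF2 and is not itself such a factor. Irf2bp2 was the fall that remained after median ratio scaling. Irf7, which amplifies type I interferon, was at 436 and 395 RPKM in the LPS libraries, against 33.3 RPKM unstimulated (3.60), and Irf1 at 198 and 208 RPKM in the LPS libraries, against 20 RPKM unstimulated (3.28). Irf3, which is present before LPS and activated by phosphorylation, was at 9.64 and 8.13 RPKM in the LPS libraries, against 15.4 RPKM unstimulated (-0.73) and not called after median ratio scaling. Of the JAK kinases and STAT factors 7 rose and 1 fell of 11 tested (median 0.96), and 10 rose and 1 fell after median ratio scaling. Jak2 was at 287 and 273 RPKM in the LPS libraries, against 33.6 RPKM unstimulated (3.02), Stat5a changed by 2.59 and Stat2 by 2.13, while Stat6, the factor of interleukin 4 signalling, was at 35.6 and 36 RPKM in the LPS libraries, against 87.4 RPKM unstimulated (-1.26) and also fell after median ratio scaling. Among interferon receptors Ifngr1, a chain of the interferon gamma receptor, fell (-1.29), and Ifnar1 (0.48) and Ifnar2 (0.35), the chains of the type I receptor, rose, though Ifnar2 was not called without library 20 nor without library 21.

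**Figure D3:**
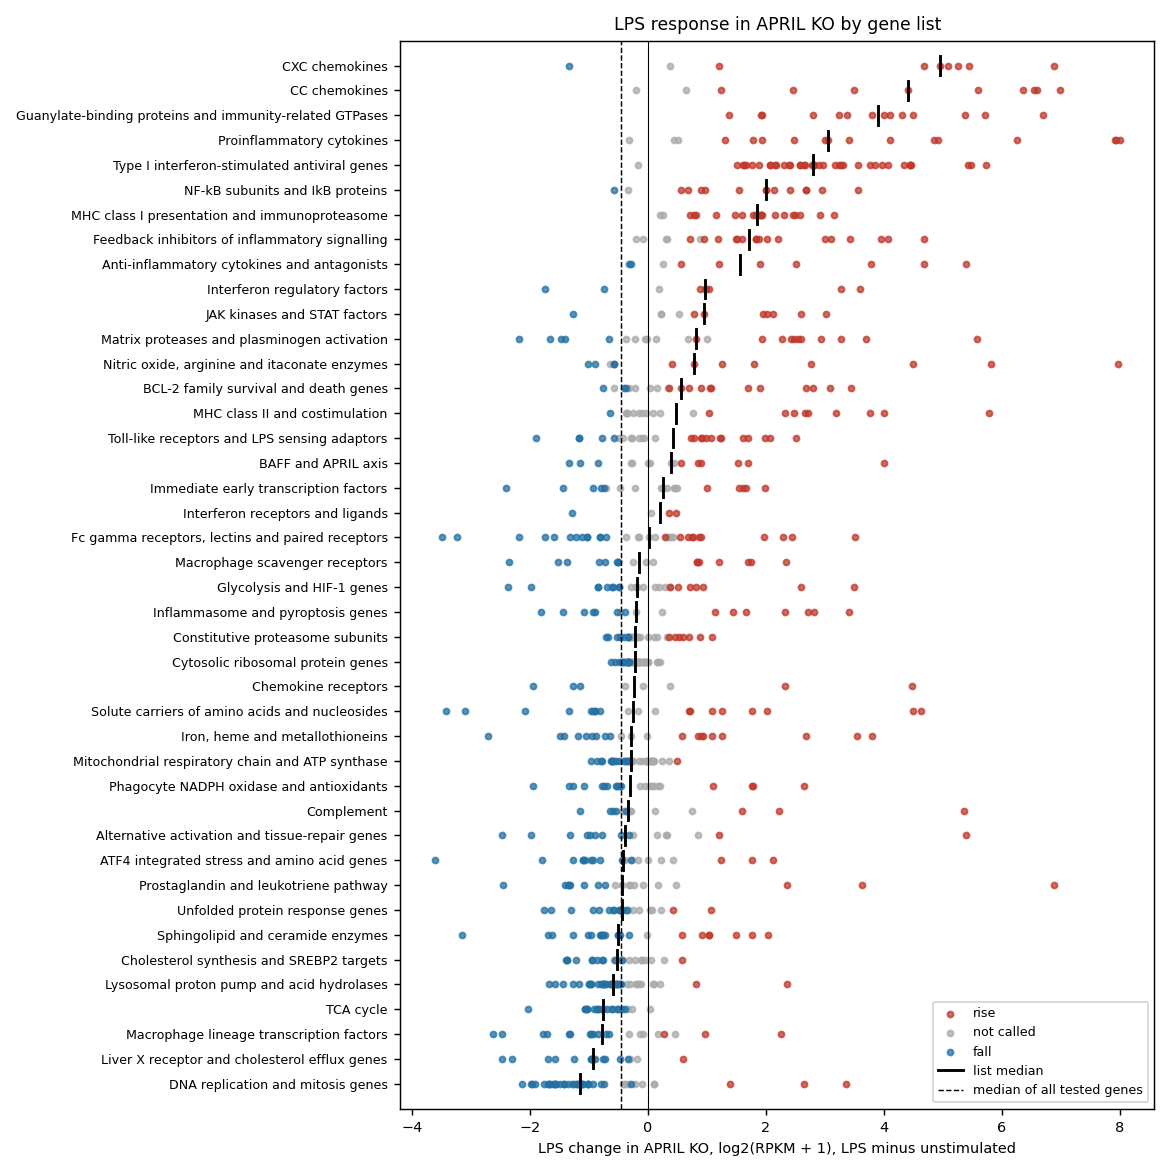
Change with LPS in APRIL KO macrophages, LPS minus unstimulated on the log2(RPKM + 1) scale, of every tested member of the 42 gene lists, coloured by call, with each list's median as a black bar and the median of all tested genes (-0.46) as a dashed line. Chemokine lists have medians of 4.96 (CXC) and 4.41 (CC) at the top, and DNA replication and mitosis genes of -1.14 at the bottom.

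Effector enzymes were split by step. Of the nitric oxide, arginine and itaconate genes 8 rose and 4 fell of 13 tested (median 0.78), and 8 rose and 1 fell after median ratio scaling. Acod1, which makes itaconate, was at 874 and 854 RPKM in the LPS libraries, against 14.2 RPKM unstimulated (5.83), and Slc7a2, an arginine importer, at 96.9 and 98 RPKM in the LPS libraries, against 3.34 RPKM unstimulated (4.50). Gch1, the first enzyme of tetrahydrobiopterin synthesis, a cofactor of Nos2, rose by 2.77, and Asl, which regenerates arginine, fell by 1.02. The other falls were Pts, Qdpr and Spr, later enzymes of tetrahydrobiopterin synthesis or its recycling, and these were not called after median ratio scaling. In the prostaglandin and leukotriene pathway 3 rose and 8 fell of 19 tested (median -0.43), and 6 rose and 6 fell after median ratio scaling. Beside Ptgs2, the rises were Ptges, the inducible prostaglandin E synthase, at 16.1 and 18.5 RPKM in the LPS libraries, against 0.469 RPKM unstimulated (3.64), and Pla2g4a, which releases arachidonic acid (2.37). Falls under both scalings included Ptgs1, the constitutive cyclooxygenase, at 2.83 and 2.4 RPKM in the LPS libraries, against 8.19 RPKM unstimulated (-1.35), Hpgd, which degrades prostaglandins (-1.41), Hpgds, the hematopoietic prostaglandin D synthase (-1.34), and the lysosomal phospholipase Pla2g15 (-2.45).

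Among matrix proteases and genes of plasminogen activation 11 rose and 5 fell of 23 tested (median 0.81), and 13 rose and 4 fell after median ratio scaling. Mmp13, a collagenase, was at 475 and 490.1 RPKM in the LPS libraries, against 9.06 RPKM unstimulated (5.59), and Plat, the tissue plasminogen activator, at 7.88 and 8.21 RPKM in the LPS libraries, against 0.179 RPKM unstimulated (2.94). Timp1, an inhibitor of metalloproteinases, was at 25 and 112 RPKM in the LPS libraries, against 3.18 RPKM unstimulated (3.70). Timp1 was thus far higher in library 21, the library with the stromal matrix genes, whose part in this list was not tested; without library 20 the list had 14 rises, and without library 21 10. Mmp9, a gelatinase, was at 1.92 and 3.13 RPKM in the LPS libraries, against 14.8 RPKM unstimulated (-2.19), and Mmp8 (-1.66) and Mmp19 (-1.46) also fell under both scalings.

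Of the genes of MHC class I presentation and the immunoproteasome 20 rose and 0 fell of 22 tested (median 1.86), and 22 rose and 0 fell after median ratio scaling. Nlrc5, the transactivator of class I genes, was at 141 and 135 RPKM in the LPS libraries, against 14.5 RPKM unstimulated (3.16), Tap1, a peptide transporter, at 318 and 302 RPKM in the LPS libraries, against 40.2 RPKM unstimulated (2.92), and the immunoproteasome subunit Psmb10 at 463 and 431 RPKM in the LPS libraries, against 74.1 RPKM unstimulated (2.58). Constitutive proteasome subunits had 7 rises and 7 falls of 28 tested, with 14 and 0 after median ratio scaling and 5 and 14 after quantile normalization, so no direction can be given for them. Of MHC class II and costimulation genes 9 rose and 1 fell of 20 tested (median 0.48), and 9 rose and 0 fell after median ratio scaling. The rises were costimulatory or adhesion genes: Cd40 was at 388 and 354 RPKM in the LPS libraries, against 5.78 RPKM unstimulated (5.78), Cd274, which encodes PD-L1, at 261 and 229.6 RPKM in the LPS libraries, against 14.4 RPKM unstimulated (4.00), and Cd86 at 57.2 and 51 RPKM in the LPS libraries, against 5.03 RPKM unstimulated (3.19). Class II genes proper gave 0 rises as deposited; H2-Ab1, chosen after its values were seen, was at 271 and 185 with LPS, against an unstimulated 229 RPKM (-0.03, adjusted p = 0.92).

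Surface receptors for particles and debris divided within families. Of Fc gamma receptors, lectins and paired receptors 11 rose and 13 fell of 33 tested (median 0.02), and 14 rose and 8 fell after median ratio scaling. Clec4e, the lectin Mincle, was at 458 and 378 RPKM in the LPS libraries, against 35.6 RPKM unstimulated (3.51), and Fcgr1, the high-affinity receptor for immunoglobulin G, at 132 and 130.02 RPKM in the LPS libraries, against 23.1 RPKM unstimulated (2.45). Fcgr2b, the inhibitory receptor, rose by 1.97 and Fcgr4 by 2.30. Beside Cd300lb and Nfam1, Cd300a was at 13 and 12.2 RPKM in the LPS libraries, against 60.7 RPKM unstimulated (-2.18) and Cd300lf fell as well (-1.75). Of scavenger receptors 7 rose and 8 fell of 18 tested (median -0.14), and 8 rose and 3 fell after median ratio scaling. Olr1, a receptor for oxidised LDL, was at 13.5 and 10.8 RPKM in the LPS libraries, against 1.56 RPKM unstimulated (2.35), Msr1 changed by 1.75, and Lrp1, a large endocytic receptor, was at 23.9 and 35.7 RPKM in the LPS libraries, against 154 RPKM unstimulated (-2.36). In the complement list 3 rose and 5 fell of 14 tested (median -0.33), and 4 rose and 1 fell after median ratio scaling, and Cfb, factor B of the alternative pathway, was at 125 and 124 RPKM in the LPS libraries, against 2.03 RPKM unstimulated (5.37).

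Of the inflammasome and pyroptosis genes 7 rose and 7 fell of 17 tested (median -0.21), and 7 rose and 3 fell after median ratio scaling. Without library 20 the falls numbered 4. Il18, a cytokine released by the inflammasome, was at 79.2 and 81.5 RPKM in the LPS libraries, against 6.66 RPKM unstimulated (3.41), Nlrp3, a sensor, at 114 and 127 RPKM in the LPS libraries, against 16.2 RPKM unstimulated (2.82), and Casp4, the caspase that binds LPS in the cytosol, at 119.8 and 110.5 RPKM in the LPS libraries, against 16.7 RPKM unstimulated (2.71). Nlrc4 (-1.08), the ATP-gated channel P2rx7 (-1.44) and Txnip (-1.81) fell under both scalings. Of the BCL-2 family and other survival and death genes 12 rose and 3 fell of 21 tested (median 0.56), and 13 rose and 0 fell after median ratio scaling. Mlkl, the effector of necroptosis, was at 152 and 148 RPKM in the LPS libraries, against 12.8 RPKM unstimulated (3.45), and Cflar, the inhibitor of caspase 8, at 65.1 and 56.5 RPKM in the LPS libraries, against 8.55 RPKM unstimulated (2.69). Bcl2a1b changed by 3.08, and its reads may be shared with close copies.

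Iron and metal genes moved in both directions. In that list 9 rose and 9 fell of 21 tested (median -0.28), and 10 rose and 6 fell after median ratio scaling. Cp, ceruloplasmin, was at 39.1 and 46.3 RPKM in the LPS libraries, against 2.11 RPKM unstimulated (3.81), Hamp, hepcidin, at 12 and 11.3 RPKM in the LPS libraries, against 0.975 RPKM unstimulated (2.68), and Slc40a1, the iron exporter that hepcidin blocks, at 2.18 and 2.18 RPKM in the LPS libraries, against 19.8 RPKM unstimulated (-2.71). Hamp had 0 reads unstimulated and was at least 7.51-fold higher with LPS against a limit of 3 reads. The metallothionein gene Mt2 was at 309 and 422 RPKM in the LPS libraries, against 30.2 RPKM unstimulated (3.54), and Mt1, a close relative with which it may share reads, at 89 and 95.6 RPKM in the LPS libraries, against 49 RPKM unstimulated (0.90). Among oxidase and antioxidant genes 4 rose and 11 fell of 22 tested (median -0.30), and 10 rose and 3 fell after median ratio scaling (4 and 10 after quantile normalization). Sod2, the mitochondrial superoxide dismutase, was at 115 and 103 RPKM in the LPS libraries, against 16.5 RPKM unstimulated (2.65) and Cybb, the catalytic subunit of the phagocyte oxidase, at 341 and 290.2 RPKM in the LPS libraries, against 146 RPKM unstimulated (1.10). Gclc, which limits glutathione synthesis, was at 10.3 and 11.1 RPKM in the LPS libraries, against 44.2 RPKM unstimulated (-1.95), and catalase (Cat) fell by 1.27.

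The counts of metabolic lists changed with the scaling. Of glycolysis and HIF-1 genes 7 rose and 9 fell of 25 tested (median -0.19), and 12 rose and 2 fell after median ratio scaling. Slc2a6, a glucose transporter, was at 143 and 133 RPKM in the LPS libraries, against 11.3 RPKM unstimulated (3.50), and Pfkfb3, which activates glycolysis, at 91.9 and 91.9 RPKM in the LPS libraries, against 14.4 RPKM unstimulated (2.59), while Pfkfb4, an enzyme of the same family, was at 1.52 and 1.0 RPKM in the LPS libraries, against 10.6 RPKM unstimulated (-2.37). Respiratory chain and ATP synthase genes had 1 rise and 15 falls of 40 as deposited, and 16 rises and 0 falls after median ratio scaling and 2 and 22 after quantile normalization, so no direction can be given for them. Of TCA cycle genes 0 rose and 18 fell of 21 tested (median -0.76), and 1 rose and 5 fell after median ratio scaling. Idh1, the cytosolic isocitrate dehydrogenase, was at 16.4 and 13.6 RPKM in the LPS libraries, against 64.1 RPKM unstimulated (-2.03), and Aco1 (-1.07), Idh3g (-1.06) and Suclg2 (-1.03) also fell under both scalings. Cytosolic ribosomal protein genes had 0 rises and 13 falls of 45, against 18 and 0 after median ratio scaling. Quantile normalization gave them 0 rises and 36 falls, and as deposited the falls numbered 5 without library 20 and 6 without library 21.

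Of the liver X receptor and cholesterol efflux genes 1 rose and 13 fell of 16 tested (median -0.92), and 2 rose and 7 fell after median ratio scaling. Pparg, a lipid-sensing nuclear receptor, was at 4.28 and 3.96 RPKM in the LPS libraries, against 27.5 RPKM unstimulated (-2.48), Rxra, the partner of the liver X receptors, at 0.388 and 0.662 RPKM in the LPS libraries, against 6.49 RPKM unstimulated (-2.30), and Npc1, which exports cholesterol from lysosomes, at 39 and 41.1 RPKM in the LPS libraries, against 131 RPKM unstimulated (-1.68). Of cholesterol synthesis genes 1 rose and 11 fell of 22 tested (median -0.53), and 4 rose and 5 fell after median ratio scaling; Msmo1 (-1.39), Mvd (-1.37) and Dhcr7 (-1.36) fell under both scalings. Of sphingolipid and ceramide genes 7 rose and 15 fell of 23 tested (median -0.50), and 7 rose and 5 fell after median ratio scaling (7 and 11 after quantile normalization). Cers6, a ceramide synthase, was at 34.8 and 35.7 RPKM in the LPS libraries, against 7.81 RPKM unstimulated (2.04), and Galc, which degrades galactosylceramide in lysosomes, at 8.72 and 9.32 RPKM in the LPS libraries, against 31.4 RPKM unstimulated (-1.69).

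Of lysosomal proton pump and acid hydrolase genes 2 rose and 26 fell of 38 tested (median -0.59), and 7 rose and 6 fell after median ratio scaling (2 and 28 after quantile normalization). Lipa, the acid lipase, was at 143 and 144 RPKM in the LPS libraries, against 458 RPKM unstimulated (-1.67), and the proton pump subunit Atp6v0a1 at 28.1 and 28.6 RPKM in the LPS libraries, against 86.8 RPKM unstimulated (-1.58). Ctsc, cathepsin C, ran the other way at 193 and 195 RPKM in the LPS libraries, against 36.8 RPKM unstimulated (2.37). Transcription factors of the macrophage lineage had 3 rises and 12 falls of 20 tested (median -0.78), 5 and 8 after median ratio scaling. Tfeb, a factor that drives lysosomal genes, was at 1.03 and 0.946 RPKM in the LPS libraries, against 11.2 RPKM unstimulated (-2.62), and its relative Tfec at 36.5 and 35 RPKM in the LPS libraries, against 6.64 RPKM unstimulated (2.27). Mef2d fell by 1.78, and Csf1r, the receptor for the growth factor of macrophages, was at 243 and 249.4 RPKM in the LPS libraries, against 615 RPKM unstimulated (-1.32). Of alternative activation and tissue-repair genes 2 rose and 9 fell of 16 tested (median -0.39), and 5 rose and 3 fell after median ratio scaling (2 and 8 after quantile normalization), with Vegfa at 6.02 and 8.1 RPKM in the LPS libraries, against 30.6 RPKM unstimulated (-1.99).

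Genes of DNA replication and mitosis fell in most cases under both scalings. Of these 3 rose and 31 fell of 41 tested (median -1.14), and 5 rose and 25 fell after median ratio scaling. The mitotic checkpoint kinase gene Bub1b was at 1.58 and 1.9 RPKM in the LPS libraries, against 11.1 RPKM unstimulated (-2.14), Cdk2 at 3.01 and 2.8 RPKM in the LPS libraries, against 14.3 RPKM unstimulated (-1.97) and Plk1, a mitotic kinase, at 1.2 and 1.72 RPKM in the LPS libraries, against 8.24 RPKM unstimulated (-1.92). The 3 rises were Ccnd2, cyclin D2, at 14.2 and 12.3 RPKM in the LPS libraries, against 0.393 RPKM unstimulated (3.35), Cdkn1a, the inhibitor p21, at 127 and 107 RPKM in the LPS libraries, against 17.7 RPKM unstimulated (2.65), and Ccne1 (1.39). In bulk RNA fewer cells of a kind and less RNA per cell cannot be told apart.

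The counts of stress response lists also changed with the scaling. Of unfolded protein response genes 2 rose and 13 fell of 22 tested (median -0.43), and 5 rose and 3 fell after median ratio scaling (3 and 11 after quantile normalization), with 1 rise and 8 falls without library 20. Hspa5, the chaperone BiP, was at 281 and 293 RPKM in the LPS libraries, against 137 RPKM unstimulated (1.07), and Eif2ak3, the sensor PERK, at 1.01 and 1.08 RPKM in the LPS libraries, against 5.92 RPKM unstimulated (-1.76). Of ATF4 and amino acid genes 3 rose and 11 fell of 20 tested (median -0.41), and 7 rose and 4 fell after median ratio scaling (6 and 8 after quantile normalization); Nupr1 rose by 2.12, and Trib3 fell by 1.79. Of immediate early transcription factor genes 5 rose and 5 fell of 19 tested (median 0.26), and 11 rose and 2 fell after median ratio scaling, with Nr4a3 at 4.41 and 4.31 RPKM in the LPS libraries, against 0.357 RPKM unstimulated (1.98) and Fos at 8.57 and 10.6 RPKM in the LPS libraries, against 54.8 RPKM unstimulated (-2.41). Solute carriers of amino acids and nucleosides had 8 rises and 9 falls of 20 (9 and 4 after median ratio scaling), with the nucleoside transporter Slc28a2 at 484 and 495 RPKM in the LPS libraries, against 18.9 RPKM unstimulated (4.62) and the proton-coupled amino acid transporter Slc36a1 at 1.61 and 1.72 RPKM in the LPS libraries, against 10.3 RPKM unstimulated (-2.09).

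Of the genes of the BAFF and APRIL axis 6 rose and 3 fell of 15 tested (median 0.40), and 7 rose and 2 fell after median ratio scaling. The 15 include the deleted Tnfsf13, which was tested only because the other genotypes reached 1 RPKM. With 0 reads in every APRIL KO column it could show no change. Sdc4, a syndecan, a proteoglycan with heparan sulphate chains of the kind that bind APRIL, was at 241 and 244 RPKM in the LPS libraries, against 14.1 RPKM unstimulated (4.01), and Sdc1, its relative, at 16.2 and 16.1 RPKM in the LPS libraries, against 36.9 RPKM unstimulated (-1.14). The adaptor genes Traf2 (1.52), Birc3 (1.70) and Birc2 (0.90) rose. Tnfsfm13, the annotated read-through gene over the deleted Tnfsf13, was still read, at 19 and 16.4 RPKM in the LPS libraries, against 46.3 RPKM unstimulated (-1.34), and how reads were shared between both genes is not given.

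Markers of other cell types gave 0 rises and 9 falls among 13 tested neutrophil and granule genes, with 2 and 3 after median ratio scaling. The summed level of all 14 listed neutrophil markers was 1648 and 1692 RPKM in the LPS libraries 20 and 21, against 2822 RPKM unstimulated. S100a9 was at 777 and 823 with LPS, against an unstimulated 1366 RPKM, a fall not called after median ratio scaling. Neutrophil markers thus moved with the falls, and their part in them was not tested. Macrophage markers had 2 rises and 4 falls of 9, with 4 and 1 after median ratio scaling, and monocyte markers 2 and 4 of 10, with 5 and 2 after that scaling. There was 1 fall among 5 tested B cell markers, which median ratio scaling replaced by 2 rises. Dendritic cell markers had 2 falls of 4 (1 after median ratio scaling), osteoclast markers 1 rise and 3 falls of 5 (1 and 2), and T or NK cell markers 1 rise and 1 fall of 2 (1 and 0). No mast cell, erythroid, megakaryocyte or skeletal muscle marker was called as deposited. Median ratio scaling called 2 mast cell markers, 1 megakaryocyte and 1 skeletal muscle marker as rises. Without library 20 5 of 24 skeletal muscle markers rose and 1 mast cell and 1 megakaryocyte marker fell. Without library 21 2 of 4 erythroid markers rose and 2 skeletal muscle markers fell. The dendritic cell falls numbered 1 without library 20, and the B cell fall was lost without library 20 and without library 21.

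Set against WT, the APRIL KO response had no gene whose difference was called. The difference of the 2 responses passed limma's adjusted p of 0.05 at 0 of 9934 genes, with 337 at an unadjusted p under 0.05 and a smallest adjusted p of 0.67. The precision was low, since each genotype has 1 unstimulated library: the median SE of a difference was 0.26 and 131 genes differed by at least 1 on the log2 scale. The changes correlated across genes at 0.950 (Pearson, a description without a p). Of the 1426 rises in APRIL KO 1234 were called in WT too, which is 86.5% of the rises in APRIL KO and 91.0% of the 1356 in WT. For falls 3998 were shared, 84.3% of those in APRIL KO and 86.2% of the 4636 in WT. The smallest p belonged to Ptgs2, chosen after its values were seen, at 258 and 236 RPKM in the LPS libraries, against 1.09 RPKM unstimulated in APRIL KO and 187 and 154 RPKM with LPS against 3.19 RPKM unstimulated in WT, a difference of responses of 1.54 ± 0.20 (adjusted p = 0.67). The LPS levels of Ptgs2 lay near each other, and the unstimulated levels further apart.

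**Figure D4:**
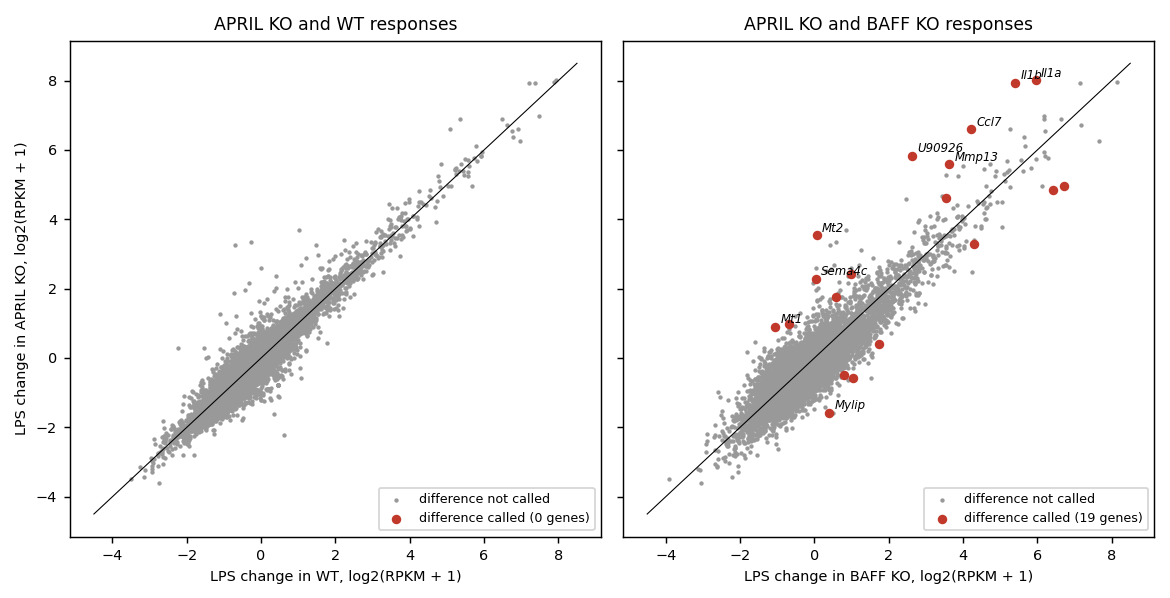
Change with LPS in APRIL KO (vertical) against that in WT (left) and in BAFF KO (right), both on the log2(RPKM + 1) scale, for 9934 genes, with the line of equal change and genes whose difference was called in red. No gene is red against WT and 19 are against BAFF KO, with Il1b, Il1a, Mt2 and U90926 among those above the line.

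Against BAFF KO, 19 of 9934 genes differed in their response (0.191%), 12 with a higher and 7 with a lower change in APRIL KO, and 1873 had an unadjusted p under 0.05. Both interleukin 1 genes were among the 12. Il1b was at 2269 and 2549 RPKM with LPS against 8.84 RPKM unstimulated in APRIL KO, and 373 and 369 RPKM with LPS against 7.79 RPKM unstimulated in BAFF KO, a difference of responses of 2.53 ± 0.15 (limma adjusted p = 0.0019). Its level in WT was 2298 and 2492 RPKM with LPS against 13.4 RPKM unstimulated. Il1a was at 966 and 798 RPKM with LPS against 2.42 RPKM unstimulated in APRIL KO, and 176 and 203 RPKM with LPS against 2.07 RPKM unstimulated in BAFF KO (2.06 ± 0.21, adjusted p = 0.012), with 678 and 624 RPKM with LPS against 1.67 RPKM unstimulated in WT. For both genes the APRIL KO and WT libraries lay close together with LPS, and the BAFF KO libraries lay below both.

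Mt2 was at 309 and 422 RPKM with LPS against 30.2 RPKM unstimulated in APRIL KO, and 40.4 and 45.3 RPKM with LPS against 41 RPKM unstimulated in BAFF KO (3.48 ± 0.26, adjusted p = 0.0031). BAFF KO thus had nearly the same Mt2 level with and without LPS. Mt1 was at 89 and 95.6 RPKM with LPS against 49 RPKM unstimulated in APRIL KO, and 34.8 and 33 RPKM with LPS against 71.3 RPKM unstimulated in BAFF KO (1.95, adjusted p = 0.01). Mmp13 was at 475 and 490.1 RPKM with LPS against 9.06 RPKM unstimulated in APRIL KO, and 124 and 128 RPKM with LPS against 9.33 RPKM unstimulated in BAFF KO (1.97, adjusted p = 0.0019), and U90926, an uncharacterised transcript, at 105 and 91.8 RPKM with LPS against 0.738 RPKM unstimulated in APRIL KO, and 9.45 and 9.83 RPKM with LPS against 0.738 RPKM unstimulated in BAFF KO (3.22, adjusted p = 0.0019). The unstimulated value of U90926 stands for 0 reads in both genotypes, and APRIL KO was at least 94.1-fold higher with LPS against a limit of 3 reads. The other higher changes among the 10 largest were Ccl7 (2.38, adjusted p = 0.01), the semaphorin gene Sema4c (2.26, 0.042), Alas1, the first enzyme of heme synthesis (1.67, 0.016), and Plaur, the urokinase receptor (1.43, 0.012).

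Lower changes in APRIL KO than in BAFF KO were found for Cxcl9, Il12b, Irf1 and 4 other genes. Cxcl9 was at 33.1 and 35.3 RPKM with LPS against 0.131 RPKM unstimulated in APRIL KO, and 131 and 133 RPKM with LPS against 0.272 RPKM unstimulated in BAFF KO (-1.74 ± 0.18, adjusted p = 0.014), and its WT level was 36.7 and 39.3 RPKM with LPS against 0.131 RPKM unstimulated. Il12b was at 72 and 61.4 RPKM with LPS against 1.35 RPKM unstimulated in APRIL KO, and 154 and 144 RPKM with LPS against 0.742 RPKM unstimulated in BAFF KO (-1.58, adjusted p = 0.03). Irf1, an interferon regulatory factor, was at 198 and 208 RPKM with LPS against 20 RPKM unstimulated in APRIL KO, and 410.4 and 437 RPKM with LPS against 20.6 RPKM unstimulated in BAFF KO (-1.01, adjusted p = 0.044). These 3 genes rose in both knockouts, and the LPS libraries of BAFF KO were above those of APRIL KO. Mylip, a ligase that degrades the LDL receptor, was at 10.6 and 9.83 RPKM with LPS against 32.3 RPKM unstimulated in APRIL KO, and 28.5 and 29.4 RPKM with LPS against 21.8 RPKM unstimulated in BAFF KO (-1.97, adjusted p = 0.0082). The proton pump gene Atp6v0c (-1.62), Swap70 (-1.33) and the semaphorin gene Sema4d (-1.30) complete the 7.

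**Figure D5:**
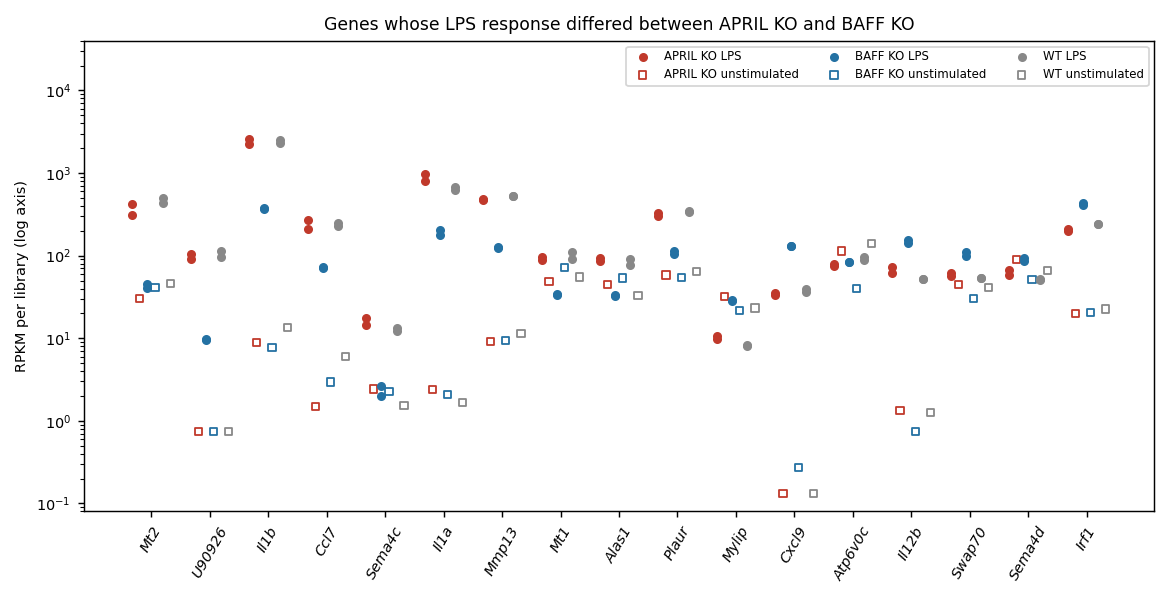
RPKM per library (log axis) of the 17 named genes whose LPS response differed between APRIL KO and BAFF KO, with LPS libraries as filled circles left of the unstimulated library as an open square, in APRIL KO (red), BAFF KO (blue) and WT (grey). Il1b stands at 2269 and 2549 RPKM in APRIL KO LPS libraries and at 373 and 369 RPKM in those of BAFF KO.

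These calls rest on few libraries. Without BAFF KO library 17 the test called 3 genes with a higher change and without library 18 it called 4, and neither gave a lower one. Without APRIL KO library 20 it called 8 and 2, without library 21 it called 7 and 2, and without WT library 14 or 15, which enter only through the shared spread, 9 and 2. U90926, Il1b and Mmp13 stayed called in all 6 cases, and Mt2 in all but that without library 17. Ccl7 and Il1a, and among the lower changes Mylip and Atp6v0c, were lost without library 17 and without 18. Mt1 was lost without 17, 18 or 21, and Alas1 and Plaur were lost without each of 17, 18, 20 and 21. Sema4c, Cxcl9, Il12b, Swap70, Sema4d and Irf1 were lost in all 6 cases. The lower index column of each library alone gave 0 calls in either direction. Of the rises in APRIL KO 84.8% were called in BAFF KO as well, and 72.1% of the falls; the responses correlated across genes at 0.896, and both comparisons of responses share the APRIL KO libraries.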

How the data were processed

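RNA of macrophages was sequenced on a NextSeq 550 as single reads, per the labels' protocols, which name both a TruSeq and a directional NEBNext kit, so strandedness is unclear. STAR was the aligner and mm10 the genome build, per the submitters' processing notes. No source used here names the counter or a version of STAR. In the single table, the authors deposited RPKM values, scaled to gene length and library total, of 11164 genes in 18 columns. Reads recovered from these values served for depth, detection limits, shares of reads and the filter of at least 50 reads, not for the tests. They came out whole within 0.01 reads and summed to the column's total in 18 of 18 columns, with 0 reads stored as a floor. Columns of APRIL KO held 1819768 to 3875768 reads.

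The 2 columns of a library number were averaged. A gene was tested where the mean of any of the 6 groups reached 1 RPKM, which left 9934. The log2(RPKM + 1) values went into limma 3.58.1 in R 4.3.3 (6 group means over 9 libraries, 3 residual degrees of freedom, eBayes with a trend, 2-sided tests, Benjamini-Hochberg adjustment over all genes tested, threshold 0.05). The comparisons were the LPS response in APRIL KO and its difference from the responses of WT and BAFF KO. No count model was used, since the unit is RPKM. The fit was also run on simulated data with an assumed spread and no shift of all genes. Its outcome is not given here and does not bear on the scaling. Symbols came from GENCODE M21 for 11084 gene IDs, and 80 had none.

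The members, the 42 process lists and the 12 marker lists were chosen with earlier results of these data known. Named genes are Tnfsf13, the 15 largest rises and 15 largest falls whose columns do not overlap (falls called after median ratio scaling too), the 10 largest called differences in each direction, up to 4 rises and 4 falls per list, and called cell type markers; a few of these are not reported here. Alternatives were median ratio scaling, quantile normalization, a pseudocount of 0.1, no filter, either index column alone, a replicate block, no trend, fewer genotypes in the fit, a fold of at least 2, and each LPS library left out.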

Additional observations from a re-analysis of the deposited data

Results flagged for a closer look

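The LPS response of APRIL KO differed from that of BAFF KO by a test of the difference itself at 17 named genes (limma, adjusted p below 0.05, differences on the log2(RPKM + 1) scale, APRIL KO minus BAFF KO). Higher changes in APRIL KO were 3.48 for Mt2, 3.22 for U90926, 2.53 for Il1b, 2.38 for Ccl7, 2.26 for Sema4c and 2.06 for Il1a. Further ones were 1.97 for Mmp13, 1.95 for Mt1, 1.67 for Alas1 and 1.43 for Plaur. Lower changes were -1.97 for Mylip, -1.74 for Cxcl9, -1.62 for Atp6v0c, -1.58 for Il12b, -1.33 for Swap70, -1.30 for Sema4d and -1.01 for Irf1. Each genotype has 1 unstimulated library, so a difference also carries the gap between those: Atp6v0c was at 73.9 and 78.9 RPKM with LPS against 114 RPKM unstimulated in APRIL KO, and 83.9 and 83.2 RPKM with LPS against 39.9 RPKM unstimulated in BAFF KO, so that its LPS levels lay closer together than its unstimulated ones. For Il1b, Il1a, Mmp13, Cxcl9 and Irf1 the LPS libraries of BAFF KO stood apart from those of APRIL KO and WT alike, and the unstimulated libraries lay much closer together.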

How the results depend on the processing

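For the LPS response in APRIL KO, median ratio scaling gave 2345 rises and 1814 falls, and quantile normalization 2859 falls. A fold of at least 2 in RPKM + 1 left 827 rises and 1885 falls. The other settings stayed within 1.5 times of 1426 rises and 4744 falls. Leaving out each LPS library of the series gave 1312 to 1440 rises and 3961 to 4706 falls. Of 284 named genes, 9 that fell as deposited took a positive sign after median ratio scaling, none of them called: Tgfb1 0.22, Il10rb 0.25, Ripk1 0.10, Bax 0.16, Rpl10a 0.058, Rpl13 0.097, Psma1 0.019, Psmd2 0.077 and Cd68 0.016; the scaling moves every gene upward by construction. Of 283 named calls, 265 stayed whichever LPS library was left out; 15 were lost without library 20 and 12 without library 21.

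For the difference from WT, the column with the lower index number alone gave 1 lower change, and leaving out a library gave 0 to 1 higher changes. For the difference from BAFF KO, quantile normalization gave 43 higher and 31 lower changes, the lower index column alone 0 and 0, and eBayes without a trend 4 and 1. Lower changes numbered 4 after median ratio scaling and 3 without the filter, in a fit of the compared genotypes only and under the replicate block. Leaving out a library gave 3 to 9 higher and 0 to 2 lower changes; fewer samples enter those fits, and the cause of the other shifts was not tested.

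The replicate block (first or second library number of each LPS group) gave 1341 rises and 4347 falls in APRIL KO, and 9 higher and 3 lower changes against BAFF KO. Deviations of same-numbered LPS libraries correlated across genes at 0.12 between APRIL KO and BAFF KO. The values were -0.10 for APRIL KO and WT and -0.18 for BAFF KO and WT. With so few libraries per group, and with genes that are not independent replicates, these values cannot decide whether the numbers pair the libraries. Depth limits low genes most: 311 to 823 genes per APRIL KO column had 0 reads.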
